A study of Mus musculus with 6 samples.

Results

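The 10 genes of glutathione synthesis and use described here (Gpx1, Gpx3, Gpx4, Gclc, Gclm, Gss, Gsr, Slc7a11, Slc3a2 and Txnrd1) were measured in the ovaries of Bnc1+/+ and Bnc1tr/tr mice. They were taken by their symbols from a table of 44788 genes, and all 10 were present and passed the filter on low counts. Whole-ovary RNA was compared between 3 samples from wild-type Bnc1+/+ mice and 3 from mice homozygous for a truncating Bnc1 allele, all of the strain C57BL/6 J and 8 weeks of age. The allele was made by deleting a few bases of exon sequence in the germline, so it was carried by every cell of the mutant mice and was not limited to oocytes. Sequencing was single-end on the Ion Proton platform. The study's methods state that littermates were compared. The labels do not give the stage of the estrous cycle, and they do not say whether a sample was 1 ovary, a pair or a pool of ovaries. Each sample is called an ovary here.

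Glutathione is a small peptide that cells use to remove peroxides. Cystine enters the cell through an exchanger made of the light chain Slc7a11 and the heavy chain Slc3a2, and it is reduced to cysteine. Glutamate-cysteine ligase, with the catalytic subunit Gclc and the modifier subunit Gclm, joins cysteine to glutamate, and glutathione synthetase (Gss) adds glycine. The glutathione peroxidases (Gpx) Gpx1, Gpx3 and Gpx4 spend glutathione to reduce peroxides, and glutathione reductase (Gsr) restores it with NADPH. Thioredoxin reductase 1 (Txnrd1) serves the parallel thioredoxin system. Gpx4 reduces peroxides within membrane phospholipids and is the enzyme best known for holding back ferroptosis, an iron-dependent cell death that the study examined in these mice.

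Gpx1, Gpx3, Gpx4 and Txnrd1 encode selenoproteins, in which a UGA codon that would otherwise stop translation is read as selenocysteine. The codon is shown here because the 2 genes that changed are both of this kind. All of the 10 genes are annotated as protein coding. In GRCm38 with the GENCODE M21 annotation it is codon 47 of 201 in Gpx1 (chr9:108339451-108339453), codon 73 of 226 in Gpx3 (chr11:54907256-54907258), codon 73 of 197 in Gpx4 (chr10:80054737-80054739) and codon 498 of 499 in Txnrd1 (chr10:82896037-82896039), all on the plus strand. The transcript sequences below run 5′ to 3′ with 12 bases on either side, and the capitals mark the selenocysteine codon.
Gpx1: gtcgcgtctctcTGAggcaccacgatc
Gpx3: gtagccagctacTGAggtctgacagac
Gpx4: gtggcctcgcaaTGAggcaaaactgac
Txnrd1: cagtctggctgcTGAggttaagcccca
In all 4 the codon is followed by ggc or ggt, both codons of glycine. In Txnrd1 the stop codon taa comes directly after this glycine. The reading frames of the other 6 genes held no such codon before their stop.

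Gpx3 and Gpx4 were lower in Bnc1tr/tr ovaries, and the other 8 genes did not pass the test. Expression is given as CPM, read counts scaled to a common library total with TMM factors. Differences were tested two-sided with the quasi-likelihood F-test of edgeR, and p-values were adjusted by the Benjamini-Hochberg method over all 19423 genes tested, with a threshold of 0.05. Of all genes tested, 7.06% passed, with 4.19% lower and 2.88% higher in Bnc1tr/tr ovaries. The 2 of 10 genes that passed were both lower. The median log2 fold change of the 10 genes was -0.19, against 0.018 for all genes tested. The 3 values of each genotype did not overlap for Gpx3, Gpx4, Gss and Slc7a11, 4 of the 10 genes, against 30.8% of all genes tested. Of these 4, 3 were lower and 1 was higher in the mutant, where the shares of all genes tested were 15.8% and 15%. Because the 10 genes were chosen with earlier results of these data known, these shares do not test for an excess.

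**Figure D1:**
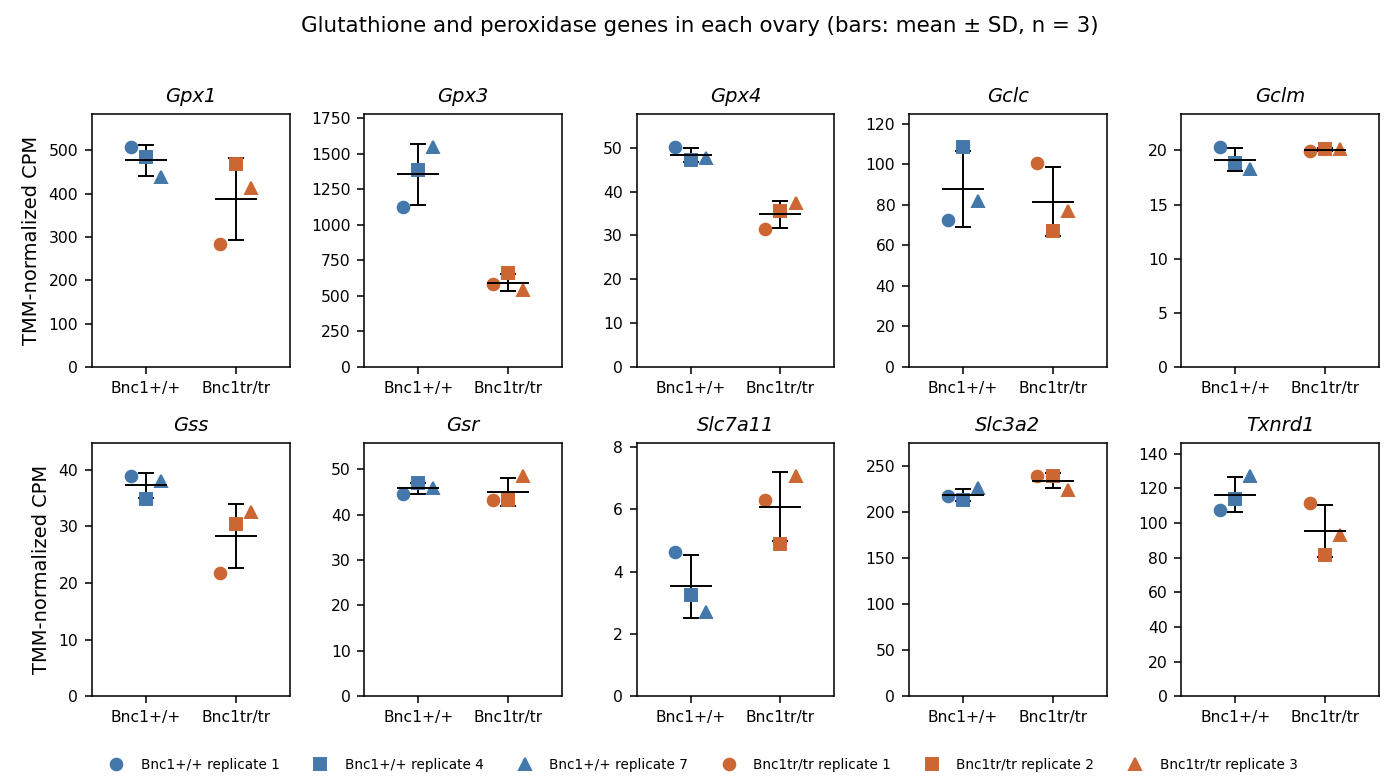
TMM-normalized CPM (y axis, from 0) of the 10 genes in each ovary, with Bnc1+/+ in blue and Bnc1tr/tr in orange, 1 symbol per replicate, and the mean ± SD of 3 ovaries in black. All 3 Bnc1tr/tr points lie below all 3 Bnc1+/+ points for Gpx3, Gpx4 and Gss, and above them for Slc7a11.

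The libraries held 25247770 to 34406296 counted reads, and the 10 genes had between 78 and 45928 reads in an ovary. Bnc1 itself was at 13.1 to 13.9 CPM in Bnc1+/+ and 11.5 to 18.7 CPM in Bnc1tr/tr ovaries, and since the deletion leaves nearly all of the transcript in place, its level does not check the genotype. Defining markers of the ovary (oocyte, granulosa, theca and corpus luteum lists) were present, and none was at 0 in all 6 ovaries. The summed level of 10 corpus luteum markers was 22658 to 26433 CPM in Bnc1+/+ and 6963 to 12488 CPM in Bnc1tr/tr ovaries, and 7 of the 10 were lower by the same test. In whole ovaries, fewer cells of a type and less RNA per cell cannot be told apart, and the part of luteal tissue in the differences described here was not tested. The summed oviduct markers were highest in Bnc1+/+ replicate 1 (142 CPM) and Bnc1tr/tr replicate 3 (526 CPM), against 9.81 to 25.1 CPM in the other ovaries. The summed oocyte markers were 698 to 891 CPM in Bnc1+/+ and 837 to 1280 CPM in Bnc1tr/tr ovaries, with 3 of 10 (Gdf9, Bmp15 and Oosp1) higher. Granulosa markers overlapped (4126 to 5209 and 4364 to 7002 CPM, with Amh alone higher), as did macrophage markers (356 to 375 and 226 to 434 CPM). Theca markers also overlapped (1587 to 1926 and 1756 to 2664 CPM), and most of their sum was Aldh1a1 (1426 to 1780 and 1273 to 2514 CPM). The theca marker Ptch1 was above the wild-type range in every mutant ovary and did not pass (edgeR adjusted p = 0.121). Cyp17a1 ranged from 8.62 to 124 CPM in Bnc1+/+ and from 3.65 to 235 CPM in Bnc1tr/tr ovaries.

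Gpx3 (chr11:54902453-54910377, plus strand), the secreted glutathione peroxidase of plasma, was the highest of the 10 genes per length and had the largest change. Its CPM was 1125, 1386 and 1549 in Bnc1+/+ replicates 1, 4 and 7. In Bnc1tr/tr replicates 1, 2 and 3 it was 582, 658 and 540. The highest mutant ovary was well below the lowest wild-type ovary. The means were 1353 ± 214 and 594 ± 59.7 CPM (SD, n = 3 each), a 2.28-fold fall. The log2 fold change was -1.19 (standard error 0.14, 95% interval -1.51 to -0.86, Benjamini-Hochberg adjusted p = 0.0044 by edgeR), and 2.12% of all genes tested had a log2 fold change as low or lower. It stayed past the threshold under each of 14 alternatives of scaling, filter, tool or ovaries, with log2 fold changes from -1.31 to -1.09.

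Gpx3 and the summed corpus luteum markers were both below the wild-type range in every Bnc1tr/tr ovary. The luteal sums were 22658, 26433 and 24890 CPM in Bnc1+/+ replicates 1, 4 and 7 and 6963, 12488 and 11012 CPM in Bnc1tr/tr replicates 1, 2 and 3. Bnc1+/+ replicate 1 was the lowest wild-type ovary and Bnc1tr/tr replicate 2 the highest mutant ovary on both measures, and the other ovaries differed in order between the measures. The summed adipocyte markers, from fat that can be carried with the ovary, were at 16.8 to 94.7 CPM in Bnc1+/+ and 36.4 to 364 CPM in Bnc1tr/tr ovaries, and 1 of the 7 (Plin1) was higher. The part of either tissue in the Gpx3 difference was not tested.

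Gpx4 (chr10:80047166-80056439, plus strand), the phospholipid hydroperoxide peroxidase, had a smaller fold change and varied little within each genotype. Its CPM was 50.2, 47.2 and 47.6 in Bnc1+/+ replicates 1, 4 and 7. It was 31.4, 35.5 and 37.5 in Bnc1tr/tr replicates 1, 2 and 3. No mutant ovary reached the wild-type range. The means were 48.4 ± 1.64 and 34.8 ± 3.09 CPM (SD, n = 3 each), with a log2 fold change of -0.47 (standard error 0.092, 95% interval -0.69 to -0.26, Benjamini-Hochberg adjusted p = 0.0258 by edgeR). The direction held under all 14 alternatives, while the adjusted p ranged from 0.00089 to 0.139. Gpx4 was short of the threshold when any 1 of the wild-type ovaries was left out (edgeR adjusted p = 0.081 without replicate 1, 0.105 without replicate 4 and 0.0807 without replicate 7). It was also short of it without both ovaries high in oviduct markers (edgeR adjusted p = 0.139). With library size as the only scaling its log2 fold change was -0.37. A processed copy listed as Gpx4-ps held 28 to 76 reads per ovary against 884 to 1565 for Gpx4, and reads shared between them could have been assigned to either.

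Gpx1 (chr9:108338903-108340343, plus strand), the abundant peroxidase of the cytosol, overlapped between the genotypes. It was at 509, 485 and 438 CPM in Bnc1+/+ and at 284, 468 and 413 CPM in Bnc1tr/tr ovaries. Bnc1tr/tr replicate 1 stood below the other 5 ovaries, and replicate 2 was within the wild-type range. The log2 fold change was -0.30 with a 95% interval from -0.70 to 0.11 (edgeR adjusted p = 0.347), so a fall of the size seen for Gpx4 lay within the interval. The red blood cell markers, listed because such cells carry Gpx1, summed to 125 to 206 CPM in Bnc1+/+ and 61.4 to 226 CPM in Bnc1tr/tr ovaries. The log2 ratio of Gpx4 to Gpx1 reads, which does not depend on the scaling, was -3.30 ± 0.087 in Bnc1+/+ and -3.45 ± 0.27 in mutant ovaries (SD, n = 3 each). The mutant mean was lower by a log2 difference of -0.15 (exact two-sided permutation test, p = 0.5, adjusted over 3 ratios 0.6, where the smallest p possible is 0.1).

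Levels of different genes were compared as CPM per kilobase of exon. The length counted every base that is exon in any annotated transcript of a gene, such as 5915 bases for Gss with 9 transcripts. The order of genes depends on this choice, and no other length was tried. On this scale Gpx3 stood at 747 ± 118 in Bnc1+/+ and 327 ± 33.0 in Bnc1tr/tr ovaries (SD, n = 3 each), rank 50 and rank 137 of 17277 genes with a length. Gpx1 was at 331 ± 25.1 and 269 ± 65.7 (SD, n = 3 each), and Gpx4 at 28.1 ± 0.949 and 20.2 ± 1.79. Between Gpx1 and Gpx4 came Slc3a2, at 61.9 ± 1.83 in Bnc1+/+ ovaries. Gpx4 was followed in Bnc1+/+ ovaries by Gclc (23.3 ± 4.99), Gsr (16.6 ± 0.438), Txnrd1 (16.4 ± 1.43), Gss (6.30 ± 0.370), Gclm (3.05 ± 0.168) and Slc7a11 (0.254 ± 0.0722, all CPM per kilobase, SD, n = 3). Gsr and Txnrd1 differed by less than their SD, and the ranges of Gclc and Gpx4 overlapped. In Bnc1tr/tr ovaries the order was the same except that Gclc (21.6 ± 4.54) stood above Gpx4, again within their spread. In Bnc1+/+ ovaries the level of Gpx3 was above that of Gpx1 in each of 3 ovaries, and in Bnc1tr/tr ovaries it was also above in each of 3, by less. The other peroxidases tested were Gpx6, Gpx7 and Gpx8, and 0 of 3 passed the edgeR test (2 at an unadjusted p under 0.05, 1 with DESeq2 and 0 with limma-voom). Of all 19423 genes tested, 4698 had an unadjusted edgeR p under 0.05, 2420 passed with DESeq2 and 1303 with limma-voom. Gpx7, a peroxidase of the endoplasmic reticulum, was at 120, 132 and 122 CPM in Bnc1+/+ and 171, 129 and 154 CPM in Bnc1tr/tr ovaries (log2 fold change 0.28, edgeR adjusted p = 0.191). Gpx8, of the same compartment, had a log2 fold change of 0.24 (edgeR adjusted p = 0.287). Gpx6 was low, at 0.513 to 0.817 CPM in Bnc1+/+ and 1.23 to 1.74 CPM in Bnc1tr/tr ovaries (log2 fold change 1.20, edgeR adjusted p = 0.0513). Gpx2 and Gpx5 did not pass the filter on low counts.

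Of the summed signal of these 6 peroxidase genes, Gpx3 held 54.4%, 60.2% and 64.8% in Bnc1+/+ replicates 1, 4 and 7. It held 45.3%, 42.1% and 38.4% in Bnc1tr/tr replicates 1, 2 and 3. The shares of Gpx7 were 7.17% to 8.18% and 11.6% to 18.7%, and those of Gpx4 were 2.09% to 2.56% and 2.39% to 2.80%. Because shares add to a whole, a lower share of Gpx3 raises the others, and these shares were not tested.

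**Figure D2:**
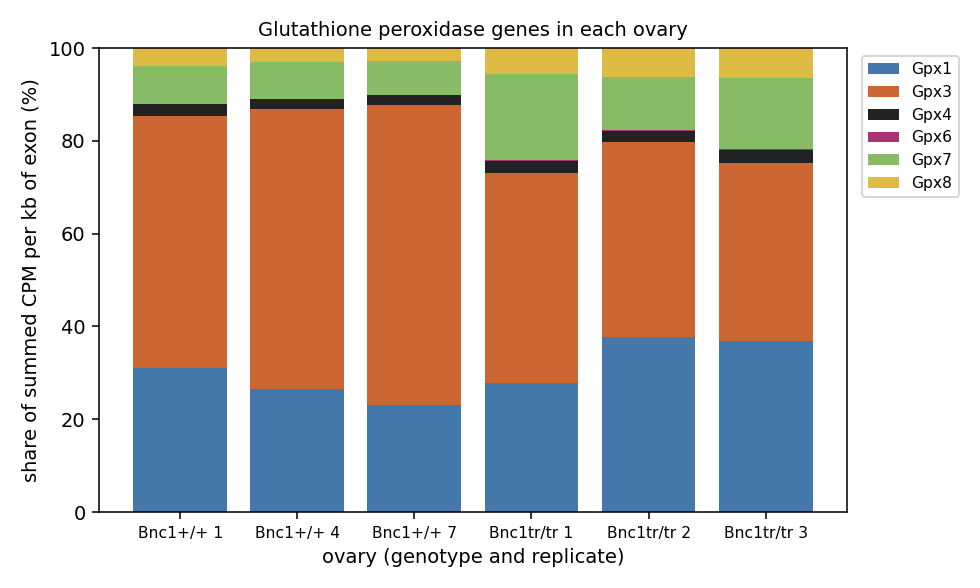
Share of each glutathione peroxidase gene (y axis, percent of the summed CPM per kilobase of exon of 6 genes) in each ovary (x axis, genotype and replicate). Gpx3, in orange, takes 54.4% to 64.8% in the 3 Bnc1+/+ ovaries and 38.4% to 45.3% in the 3 Bnc1tr/tr ovaries.

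Txnrd1 (chr10:82833951-82897712, plus strand), the remaining selenoprotein among the 10 genes, was at 107, 114 and 127 CPM in Bnc1+/+ and at 112, 81.6 and 92.9 CPM in Bnc1tr/tr ovaries. The genotypes overlapped through Bnc1tr/tr replicate 1. Its log2 fold change was -0.28 with a 95% interval from -0.58 to 0.012 (edgeR adjusted p = 0.223). The log2 fold changes of the 4 selenoprotein genes were all negative and ranged from -1.19 to -0.28. Those of the other 6 genes ranged from -0.40 to 0.79, with 3 of 6 negative. Of 17 selenoprotein genes outside the 10, described below, 10 had a negative and 7 a positive log2 fold change. Their median was -0.058.

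The synthesis genes showed no difference that passed the test. Gclc (chr9:77754535-77794485, plus strand), the catalytic subunit of glutamate-cysteine ligase, was at 72.5, 109 and 81.8 CPM in Bnc1+/+ and at 100.4, 67.1 and 77.0 CPM in Bnc1tr/tr ovaries. Each genotype held 1 high ovary, and the ranges were nearly the same. Its log2 fold change was -0.10 with a 95% interval from -0.54 to 0.33 (edgeR adjusted p = 0.778), and it turned to 0.071 without Bnc1+/+ replicate 4 and to 0.016 without Bnc1tr/tr replicate 2. Gclm (chr3:122245557-122270732, plus strand), the modifier subunit, lay between 18.3 and 20.3 CPM in Bnc1+/+ and between 20.0 and 20.2 CPM in mutant ovaries. The fitted log2 fold change of 0.068 had a narrow 95% interval, from -0.14 to 0.28 (edgeR adjusted p = 0.691). Reads of Gclc exceeded those of Gclm by 3.56, 5.78 and 4.46 times in Bnc1+/+ and by 5.03, 3.34 and 3.82 times in Bnc1tr/tr ovaries. The log2 ratio differed by -0.17 between the genotypes (exact two-sided permutation test, p = 0.6, adjusted over 3 ratios 0.6).

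Gss (chr2:155563181-155592810, minus strand), which completes glutathione, was at 39.0, 34.8 and 38.1 CPM in Bnc1+/+ and at 21.9, 30.4 and 32.6 CPM in Bnc1tr/tr ovaries. All mutant values were below all wild-type values, and Bnc1tr/tr replicate 1 was the lowest. A log2 fold change of -0.40 was fitted, with a 95% interval from -0.75 to -0.050, and it did not pass after adjustment (edgeR, unadjusted p = 0.0299, adjusted p = 0.157). Gss overlaps Acss2 on the opposite strand of chromosome 2 in GRCm38, and 395 of its 5915 exon bases (6.68%) are also exon bases of Acss2, an acetyl-CoA synthetase. Acss2 fell from 60.4 ± 2.13 to 29.5 ± 2.09 CPM (SD, n = 3 each, edgeR adjusted p = 0.0017), and whether reads were counted by strand is not given in the sources used here, so its part in the lower Gss count was not tested.

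Gsr (chr8:33652523-33698163, plus strand), which restores reduced glutathione, lay at 44.6, 47.0 and 45.9 CPM in Bnc1+/+ and at 43.1, 43.2 and 48.5 CPM in Bnc1tr/tr ovaries. The genotypes overlapped over most of their range. Its log2 fold change was -0.027 with a 95% interval from -0.22 to 0.17 (edgeR adjusted p = 0.874), and its sign changed to 0.072 with library size as the only scaling.

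The chains of the cystine exchanger differed in level and in spread. Slc7a11 (chr3:49892526-50443614, minus strand), the light chain that carries cystine, was the lowest of the 10 genes per length, at 4.64, 3.26 and 2.69 CPM in Bnc1+/+ and at 6.29, 4.88 and 7.07 CPM in Bnc1tr/tr ovaries. Every mutant value was above every wild-type value, although Bnc1tr/tr replicate 2 was close to Bnc1+/+ replicate 1. The highest value of each genotype was in its ovary with the highest oviduct markers, Bnc1+/+ replicate 1 (142 CPM) and Bnc1tr/tr replicate 3 (526 CPM). In the ovaries other than these, Slc7a11 was at 3.26 and 2.69 CPM in Bnc1+/+ and at 6.29 and 4.88 CPM in Bnc1tr/tr. The part of oviduct RNA in the Slc7a11 values was not tested. These values rest on 125, 108 and 78 reads in Bnc1+/+ and 177, 127 and 201 reads in Bnc1tr/tr ovaries. The log2 fold change of 0.79 (standard error 0.25, 95% interval 0.20 to 1.37) did not pass with edgeR (unadjusted p = 0.0147, adjusted p = 0.106), and it passed with DESeq2 (adjusted p = 0.0385). Its sign was the same under all 14 alternatives, and the adjusted p ranged from 0.0385 to 0.295.

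Slc3a2 (chr19:8706882-8723369, minus strand), the heavy chain shared with several amino acid transporters, was at 217, 213 and 225 CPM in Bnc1+/+ and at 238, 239 and 224 CPM in Bnc1tr/tr ovaries. A log2 fold change of 0.098 was fitted, with a 95% interval from -0.077 to 0.27 (edgeR adjusted p = 0.474). The log2 ratio of Slc7a11 to Slc3a2 reads averaged -5.99 ± 0.42 for Bnc1+/+ and -5.28 ± 0.32 for Bnc1tr/tr (SD, n = 3 each). It was 0.71 higher in the mutant (exact two-sided permutation test, p = 0.2, adjusted over 3 ratios 0.6). Of 5 other light chains that pair with Slc3a2 (Slc7a5, Slc7a6, Slc7a7, Slc7a8 and Slc7a10), 0 passed with edgeR, DESeq2 or limma-voom. An unadjusted edgeR p under 0.05 was found for 2 of the 5, and for 4698 of all 19423 genes tested.

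**Figure D3:**
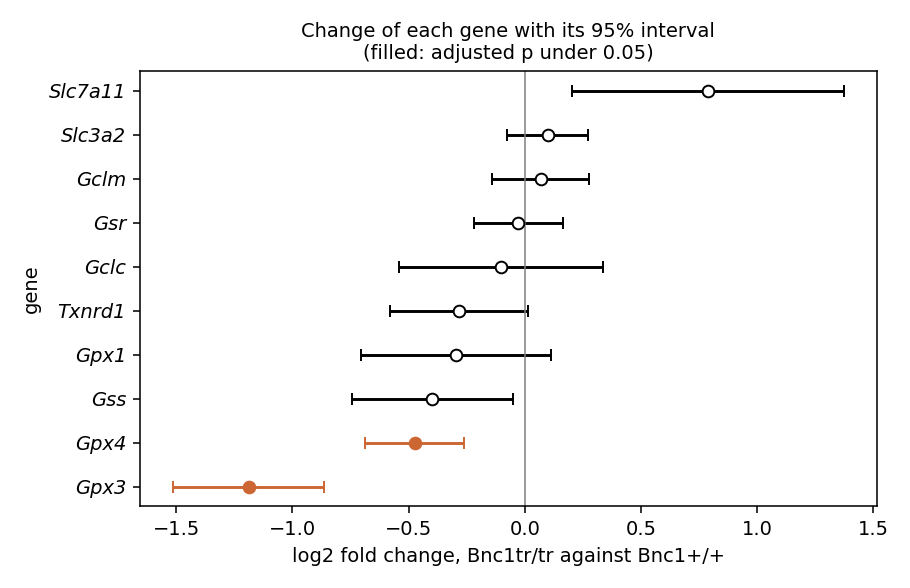
log2 fold change of Bnc1tr/tr against Bnc1+/+ ovaries (x axis) for the 10 genes (y axis), with 95% intervals from the edgeR fit; filled orange points passed an adjusted p of 0.05. The intervals of Gpx3 (-1.51 to -0.86) and Gpx4 (-0.69 to -0.26) lie below 0, and Gss and Slc7a11 have intervals clear of 0 that did not pass after adjustment over all genes.

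Slc7a11 is known as a target of the stress factor ATF4, which binds amino acid response elements. In the RefSeq promoter window of Slc7a11 (GRCm38.p6, 250 bases before to 50 after the start), the letters TGATGNAA were found 2 times, once on each strand and without overlap. The stretch is shown because Slc7a11 was the only gene of the 10 with all mutant values above the wild-type values. It lies at chr3:50443647-50443685 on the minus strand, from 72 to 34 bases before the start, and the capitals mark both matches.
Slc7a11: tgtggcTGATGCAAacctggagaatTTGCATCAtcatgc
These letters, on either strand, occur in 3.97% of 32851 promoter windows and in 1 of the 13 windows of the 8 genes matched. The core of the antioxidant response element, TGACNNNGC, which NRF2 binds, occurred in 1 window each of Gclm and Txnrd1, 2 of the 13 windows of the 8 genes matched, and in 12.4% of all windows. Gclc and Gsr had no entry.
Of 8 genes of the ATF4 system (Atf4, Ddit3, Trib3, Asns, Atf3, Ddit4, Sesn2 and Chac1), 0 passed the edgeR test and 6 had a negative log2 fold change. Of the 8, 3 had an unadjusted edgeR p under 0.05, 1 passed with DESeq2 and 0 with limma-voom. Over all 19423 genes tested these numbers were 4698, 2420 and 1303. Atf4 itself was at 171 to 216 CPM in Bnc1+/+ and 155 to 163 CPM in Bnc1tr/tr ovaries (edgeR adjusted p = 0.154).

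Of 12 genes of the NRF2 system and its targets outside the 10 genes, 0 passed the edgeR test and 4 had an unadjusted p under 0.05. With DESeq2 1 of the 12 passed, and with limma-voom 0. Of all 19423 genes tested, 1372 passed the edgeR test, 4698 had such an unadjusted p, 2420 passed with DESeq2 and 1303 with limma-voom. Nfe2l2, which encodes NRF2, was at 176, 184 and 162 CPM in Bnc1+/+ and at 151, 174 and 189 CPM in Bnc1tr/tr ovaries (edgeR adjusted p = 0.913). Keap1, its inhibitor, was at 103 to 111 and 105 to 113 CPM (edgeR adjusted p = 0.951). The sign of both log2 fold changes, -0.024 and 0.011, depended on the ovaries used. Hmox1, the heme-degrading enzyme that NRF2 induces, had values from 109 to 127 CPM in Bnc1+/+ and from 42.5 to 80.1 CPM in mutant ovaries and missed the threshold (edgeR adjusted p = 0.0566). Nqo1 had values of 5.24 to 7.76 CPM and 5.44 to 18.7 CPM (edgeR adjusted p = 0.203).

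Counted over 12 lists around the 10 genes, each gene once, 118 further genes were tested, and 11 were lower and 1 was higher in Bnc1tr/tr ovaries. Thus 12 of the 118 passed, against 7.06% of all genes tested, and 9.32% of the 118 were lower, against 4.19%. The lists were chosen with earlier results of these data known, so these shares do not test for an excess. Their median log2 fold change was -0.035, and 33.1% did not overlap between the genotypes, against 30.8% of all genes tested. Luteal markers, given above, were lower in the same ovaries. Of 14 thioredoxin and peroxiredoxin genes, 3 were lower. Prdx6, a peroxiredoxin that uses glutathione and reduces phospholipid peroxides, was at 336, 335 and 312 CPM in Bnc1+/+ and at 185, 166 and 158 CPM in Bnc1tr/tr ovaries. The spread within each genotype was small against the gap between them. It fell by 0.95 on the log2 scale (standard error 0.090, edgeR adjusted p = 0.0023), and it passed under all 14 alternatives. Prdx2, a cytosolic peroxiredoxin that is abundant in red blood cells, fell from 828 to 534 CPM on average (log2 fold change -0.63, edgeR adjusted p = 0.0293). Txnrd2, the mitochondrial thioredoxin reductase and a selenoprotein, fell by 0.44 on the log2 scale (edgeR adjusted p = 0.0318). Prdx1 and Prdx3 had values below the wild-type range in all mutant ovaries and did not pass (edgeR adjusted p = 0.0742 and 0.132). Txnip, Prdx4, Sesn1 and Sesn2 had values above that range in all mutant ovaries, and they did not pass either. The genotypes did not overlap for 10 of the 14 genes, 6 lower and 4 higher, against 30.8% of all genes tested. Of the 14 log2 fold changes, 7 were positive and 7 negative.

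Of 10 genes of selenoprotein synthesis and selenium uptake, 2 were lower and none was higher. Of all genes tested, 4.19% were lower and 2.88% were higher. Scly, which frees selenium from selenocysteine, was at 12.4, 16.9 and 16.1 CPM in Bnc1+/+ and at 6.79, 8.15 and 6.90 CPM in Bnc1tr/tr ovaries. It fell by 1.06 on the log2 scale (standard error 0.16, edgeR adjusted p = 0.0094). Lrp8, a receptor that takes up selenoprotein P, fell by 1.10 on the log2 scale (edgeR adjusted p = 0.0498), and it passed under 5 of 14 alternatives. A list of 17 selenoprotein genes outside the 10 repeats Txnrd2, Txnrd3 and Sephs2 from the lists above. Of these 17, Txnrd2 and Selo (now Selenoo, a mitochondrial selenoprotein) were lower, against 4.19% of all genes tested, and 15 did not pass. Among the 15 was the selenium carrier Sepp1, at 374 to 435 CPM in Bnc1+/+ and 325 to 490 CPM in Bnc1tr/tr ovaries. Dio2 and Dio3 had all mutant values above all wild-type values (log2 fold change 0.94 and 0.86, edgeR adjusted p = 0.0738 and 0.0626). In this list 7 log2 fold changes were positive and 10 negative. The genotypes did not overlap for 6 of the 17, 4 lower and 2 higher, against 30.8% of all genes tested.

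Of 13 genes of NADPH supply, 2 passed, both lower. Over all genes tested 7.06% passed, with 4.19% lower and 2.88% higher, and these shares are the background for each list here. Idh1, the cytosolic isocitrate dehydrogenase, fell from 1704 ± 146 to 671 ± 247 CPM (SD, n = 3 each), with a log2 fold change of -1.34 (standard error 0.27, edgeR adjusted p = 0.0283). Mthfd2, a mitochondrial enzyme of one-carbon metabolism, fell by 1.24 on the log2 scale (edgeR adjusted p = 0.0158), and 11 did not pass. Among 4 superoxide dismutase and catalase genes, the mitochondrial Sod2 was at 150, 174 and 113 CPM in Bnc1+/+ and at 69.0, 70.3 and 72.5 CPM in Bnc1tr/tr ovaries. The mutant values were close together and all below the wild-type values (log2 fold change -1.05, edgeR adjusted p = 0.0081). Of 21 genes of glutathione turnover and transport, Hagh, which hydrolyses a glutathione thioester, was lower (log2 fold change -0.54, edgeR adjusted p = 0.0080) and 20 did not pass. Of 10 genes of cysteine supply, Slc1a4, a neutral amino acid transporter, was lower (log2 fold change -0.63, edgeR adjusted p = 0.0206). Mtr, the methionine synthase, was higher (log2 fold change 0.36, edgeR adjusted p = 0.0484), and it passed under 5 of 14 alternatives. Of 6 genes of lipid peroxide defence that does not use Gpx4, 0 passed with edgeR, DESeq2 or limma-voom. Of the 6, 0 had an unadjusted edgeR p under 0.05, against 4698 of all 19423 genes tested. The median log2 fold change of this list, which includes Aifm2, was -0.0093.

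The calls among these 12 further genes rested on single ovaries to different degrees. Without Bnc1+/+ replicate 4, Prdx6 and Sod2 were the 2 of the 12 that still passed. Leaving out Bnc1+/+ replicate 1 lost Mtr, Slc1a4, Txnrd2, Prdx2, Idh1 and Selo, and leaving out Bnc1+/+ replicate 7 lost Mtr, Txnrd2, Prdx2, Idh1, Lrp8 and Selo. Among the mutant ovaries, Mtr and Lrp8 were lost without any 1 of the 3, Txnrd2 and Selo without replicate 2 or 3, and Prdx2 without replicate 3. Of 14 alternatives, Scly and Sod2 passed under 13, Hagh and Mthfd2 under 12, Slc1a4 under 11, Idh1 under 10, Prdx2 under 9, Selo under 8 and Txnrd2 under 7.

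**Figure D4:**
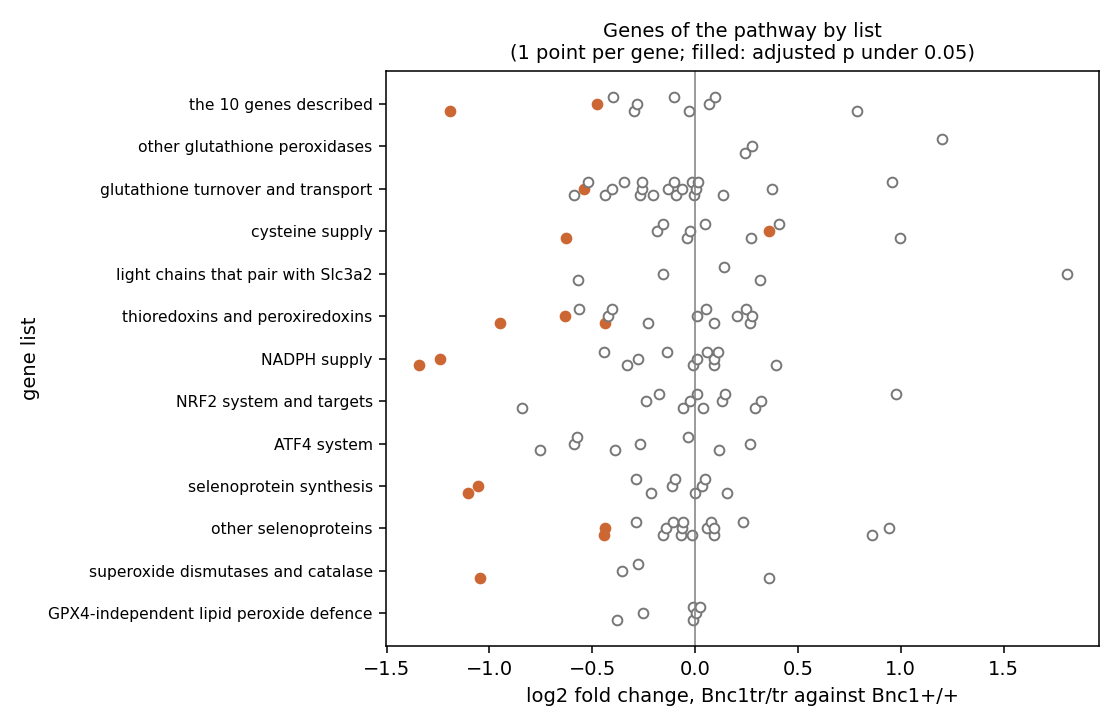
log2 fold change of Bnc1tr/tr against Bnc1+/+ ovaries (x axis) for each tested gene of the pathway (1 point per gene), by gene list (y axis); filled orange points passed an adjusted p of 0.05. Gpx3 and Gpx4 are the 2 filled points of the top list, and outside it 11 genes passed as lower and 1, Mtr, as higher; genes in more than 1 list are drawn in each.

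The genes whose profile over the 6 ovaries was closest to that of Gpx3 were Fam126a, Scly and Slc6a6, the taurine transporter. Closeness was the root mean square difference of log2 CPM, each gene centred on its mean, over 11403 genes with a mean of at least 10 CPM. It was 0.064 for Fam126a, 0.10 for Scly and 0.11 for Slc6a6 on the log2 scale. Those closest to Gpx4 were Aifm1, a mitochondrial flavoprotein, Trpm4, a cation channel, and Gpi1, a glycolytic enzyme, at 0.026, 0.038 and 0.041. These genes were chosen for their likeness, and their own changes add no test.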

How the data were processed

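The authors deposited raw counts, the whole number of reads per gene and ovary, with 1 column for each of the 6 samples and no normalization. RNA was extracted with TRIzol and sequenced from libraries of an Ion Total RNA-Seq kit. The submitters' processing notes name the builds mm10 and Sscrofa10.2, a pig build, with no role for either. The aligner, counter and annotation are not given in the sources used here. Groups came from the genotype label.

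Counts were filtered with filterByExpr (minimum count 10), which kept 19423 of 31717 genes with at least 1 count, scaled by TMM and fitted with edgeR 4.0.16 (R 4.3.3). CPM used the total count times the TMM factor. Standard errors and 95% intervals were derived from the F statistic of the fit. The study's methods name no gene-level test for these libraries. The labels do not say how the 3 samples of a genotype were taken, so p-values measure the spread between these samples. The fit was first tested on simulated counts with known changes. At the same threshold edgeR called 70 of 100 genes changed by 1 on the log2 scale and 94 of 100 changed by 2. It also called 21 of 18982 unchanged genes. DESeq2 called 78, 94 and 49 of these, and limma-voom called 67, 94 and 13.

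The 10 genes and the lists were chosen with earlier results of these data known. Named genes were these 10, up to 3 genes in each direction past the threshold from each other list, Nfe2l2 and Keap1, and, for those past the threshold, the 3 closest profiles; other genes named were chosen after their values were seen. Older symbols were used where the table had them. Positions and exon lengths came from GENCODE M21 (GRCm38, the same assembly as mm10), and promoters from RefSeq (GRCm38.p6), where 8 of the 10 genes matched. Alternatives were DESeq2 1.42.0 (its size factors, and its test), library size only, no filter, at least 10 counts in every ovary, limma-voom (limma 3.58.1), a robust fit, a log2 fold change over 1, and leaving out ovaries.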

Additional observations from a re-analysis of the deposited data

How the results depend on the processing

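Fits were repeated without each ovary, and a fit without both Bnc1+/+ replicate 1 and Bnc1tr/tr replicate 3, the ovaries with the highest oviduct markers, was added after seeing the data. Genes called were 1372 in the report, 320 to 1282 when 1 ovary was left out (320 without Bnc1+/+ replicate 4), 304 in the added fit, 2420 with DESeq2 and 648 with an absolute log2 fold change over 1. Of the 10 genes, 2 were called in the report, 1 to 2 with 1 ovary left out, 1 in the added fit and 1 with a log2 fold change over 1 (Gpx3 each time), and 3 with DESeq2. Of the 118 further genes, 12 were called in the report, 2 to 12 with 1 ovary left out, 2 in the added fit and 23 with DESeq2; without Bnc1+/+ replicate 4 the 2 were Prdx6 and Sod2. Library size as the only scaling moved the median log2 fold change of all genes from 0.018 to 0.12, with 1112 genes higher and 616 lower against 559 and 813.

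Signs changed for Gsr (0.072 with library size only, and -0.086 to 0.0012 with 1 ovary left out, against -0.12 in the added fit), Gclc (-0.28 to 0.071), Nfe2l2 (0.076 with library size only, and -0.099 to 0.059) and Keap1 (-0.027 to 0.028, and -0.0088 in the added fit). The Gclc to Gclm difference ran from -0.34 to 0.0061. The causes were not tested. No paired analysis was possible because the labels do not say which samples came from the same litter. An equal replicate number is not stated to mark a pair. With 3 ovaries per genotype, intervals of those of the 10 genes that did not pass were wide enough to hold changes of the size seen for Gpx4, except for Gclm, Gsr and Slc3a2.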
